A study of Rattus norvegicus with 6 samples.

Results

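Circadian clock genes and the PAR-bZIP factors that carry the clock's output were followed in H9c2 cells, a myoblast line derived from embryonic rat heart and used as a culture model of cardiac muscle. The set was named by known role, with earlier results of these data known. It held 10 genes: Dbp, Tef, Hlf, Nfil3, Ciart, Per1, Per2, Per3, Nr1d1 and Nr1d2. A probe was matched to 8 of them through its mRNA accession, out of 13823 coding genes with a symbol on the array; no probe was matched to Hlf or Nr1d2, whose expression was not analysed here. All 8 passed the filter on dim probes, and all 8 were well above background in every scan.

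The series compared control H9c2 cells kept at normal oxygen, 3 samples, with cells put through hypoxia/reoxygenation (H/R), 3 samples. H/R cells in medium without serum and glucose spent 1 h in 1% oxygen, 5% CO2 and 94% N2 and then 3 h at normal oxygen. Routine culture used 10% serum and glucose at 4500 mg/L; whether controls kept that medium during the treatment hours is not stated, so oxygen, serum and glucose cannot be told apart. The labels name neither a time of day of harvest nor a step that synchronised the cells, and each group was sampled at a single time. In both groups the files of replicates 2 and 3 carried the same slide position in different scans and differed by a median of 0.02 on the log2 scale over the probes tested, against 0.12 to 0.14 between other scans of a group. They differed by less than the noise between arrays and were averaged as 1 array, which left n = 2 arrays per group. The labels do not say whether replicates were separate cultures; p-values therefore reflect array-to-array spread alone, possibly technical.

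The mammalian clock is a feedback loop of transcription. The activators CLOCK (or its relative NPAS2) and BMAL1 bind E-box sequences and switch on their own repressors, the period (PER) and cryptochrome (CRY) proteins and CIART, and also the nuclear receptors REV-ERBα and REV-ERBβ (Nr1d1 and Nr1d2), which repress Bmal1 and Npas2. The PAR-bZIP activators DBP, TEF and HLF are further products of the loop; they bind D-box sequences, and NFIL3 represses through the same sequences. In the heart this output is known for its daily control of metabolic genes.

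Of the 8 genes measured, 3 rose and 1 fell after H/R. The D-box activator genes Dbp and Tef rose 3.30-fold and 2.14-fold, the clock repressor gene Ciart rose 2.63-fold, and the D-box repressor gene Nfil3 fell to 55.8% of its control signal. The period genes and Nr1d1 did not pass, with fitted changes of 1.15-fold to 1.25-fold. By the same rule, a limma adjusted p under 0.05 (Benjamini-Hochberg over 15899 probes), 25.8% of the 10001 coding genes tested were called, 16.2% higher and 9.62% lower, so that calls were common on these arrays. Over all 15899 probes 23.7% were called, 14.8% higher (2358) and 8.87% lower (1411), a split that median scaling turned to 1566 higher and 2253 lower. A called rise of at least 2-fold, as Dbp, Tef and Ciart had, was seen in 4.56% of coding genes, and a called fall of that size in 1.97%, none of them among the 8. The median change was 0.29 on the log2 scale over the 8 genes and 0.07 over all coding genes tested. Levels below are log2 signals minus the 75th percentile of the same array, so 0 is the level of a fairly bright probe. Different probes bind with different strength, and levels were therefore compared within a gene and not between genes.

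**Figure D1:**
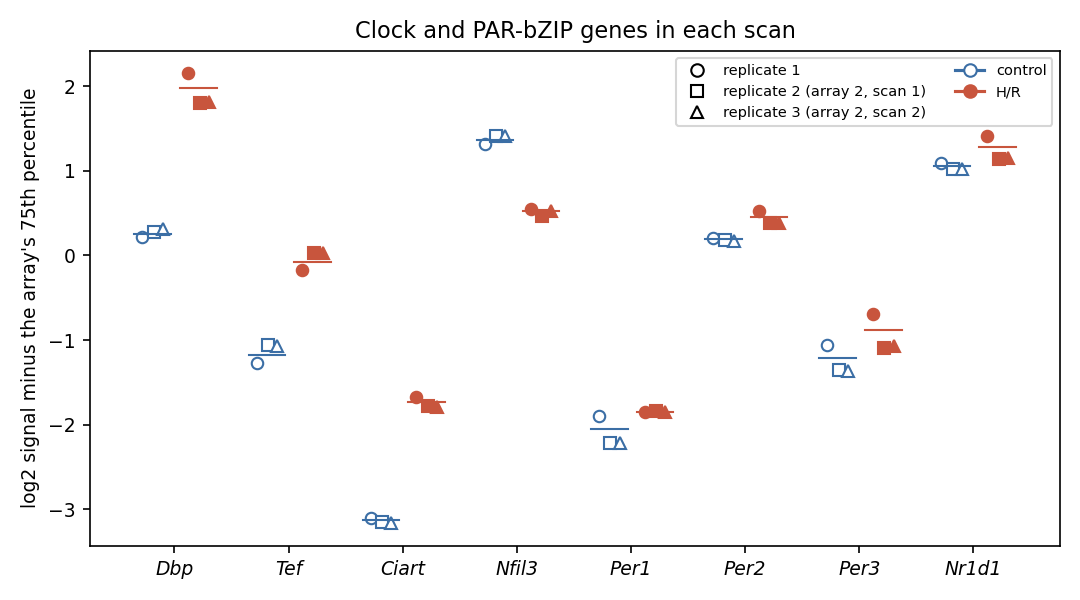
Level of each gene in each of the 6 scans, as log2 signal minus the array's 75th percentile; open blue marks are control scans, filled red marks are H/R scans, the marker shape gives the replicate and bars are means over 2 arrays. The H/R scans of Dbp, Tef and Ciart lie well above the control scans, those of Nfil3 lie below them, and those of Per3 overlap with them.

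Dbp encodes D-box binding protein, an activator whose mRNA is among the most strongly cycling in many tissues. In order of replicate number, here and below, its level was 0.22, 0.28 and 0.31 in the control scans and 2.15, 1.80 and 1.82 in the H/R scans. Every H/R scan lay above every control scan, and H/R array 1 was the highest of all. The change was 1.72 ± 0.14 on the log2 scale (moderated SE, n = 2 arrays per group, limma adjusted p = 0.00403), with a 95% interval of 1.35 to 2.10. Among the 10001 coding genes Dbp ranked 121 by size of rise.

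Tef encodes thyrotroph embryonic factor, the second activator of the family measured here. It read -1.28, -1.06 and -1.07 in the control scans and -0.17, 0.03 and 0.03 in the H/R scans. The groups were apart, and replicate 1 was the lowest scan in each of them, the opposite of Dbp in H/R. The rise was 1.10 ± 0.13 (adjusted p = 0.00792), with a 95% interval of 0.76 to 1.43, and ranked 377.

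Nfil3 encodes the bZIP repressor also called E4BP4, which competes for D-boxes. Its level was 1.31, 1.41 and 1.41 in control scans and 0.55, 0.47 and 0.52 in H/R scans. All H/R scans were low and all control scans high, with little spread within either group. The log2 change was -0.84 ± 0.10 (adjusted p = 0.00737), with a 95% interval of -1.09 to -0.59, and ranked 335 among falls. Without both scans of H/R array 2 its change was -0.82 and the adjusted p 0.0549.

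Ciart encodes a transcriptional repressor, also called CHRONO, that binds BMAL1. Its processed signal before scaling was 287, 236 and 233 units in the control scans and 555, 746 and 759 in the H/R scans. After scaling it read -3.10, -3.15 and -3.16 in control and -1.67, -1.78 and -1.80 in H/R, the tightest groups among the genes that rose. It rose by 1.40 ± 0.10 (adjusted p = 0.00297), with a 95% interval of 1.14 to 1.65, and ranked 197.

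The remaining genes measured in the set, the period genes and Nr1d1, showed small differences, all of them positive. Per1, a period repressor gene that also responds quickly to signals from outside the cell, read -1.89, -2.22 and -2.21 in control scans and -1.85, -1.84 and -1.85 in H/R scans. The difference of 0.21 ± 0.14 did not pass (adjusted p = 0.312, 95% interval -0.15 to 0.56), and the spread lay between the control arrays. Per2, whose protein pairs with the cryptochromes, read 0.21, 0.19 and 0.17 in control and 0.53, 0.38 and 0.38 in H/R. Its scans were apart, yet the difference of 0.26 ± 0.10 did not pass (adjusted p = 0.128, 95% interval -0.0019 to 0.52).

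Per3, the third period gene, read -1.05, -1.35 and -1.37 in control and -0.69, -1.09 and -1.07 in H/R. Control replicate 1 lay above the lower H/R scans, so the groups overlapped, and the difference of 0.32 ± 0.18 did not pass (adjusted p = 0.253, 95% interval -0.15 to 0.79). Nr1d1, the gene of REV-ERBα, had 2 probes. The brighter one read 1.09, 1.02 and 1.02 in control and 1.41, 1.14 and 1.15 in H/R. Its difference was 0.22 ± 0.13 (adjusted p = 0.255, 95% interval -0.11 to 0.55), and the other probe gave 0.23 ± 0.14 (adjusted p = 0.280). For these 4 genes the intervals leave room for a rise of 0.52 to 0.79 on the log2 scale, so a lack of change was not shown. Counting scans alone, 6 of the 8 genes had all H/R scans above the control scans, a pattern that 38.2% of coding genes showed; Nfil3 had all below, as did 27.9%.

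**Figure D2:**
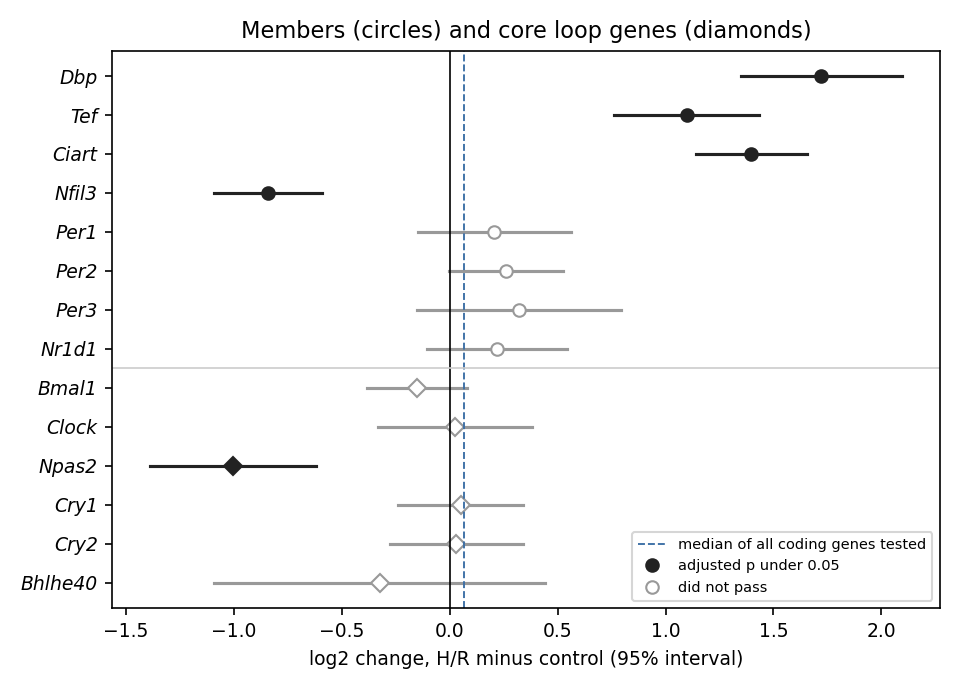
Change in H/R against control on the log2 scale, with 95% intervals of the limma fit (n = 2 arrays per group), for the 8 clock and PAR-bZIP genes (circles) and 6 core loop genes (diamonds); filled marks passed an adjusted p of 0.05. Dbp, Ciart and Tef lie to the right of the dashed median of all coding genes, Nfil3 and Npas2 to the left, and the remaining intervals include 0.

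The 4 calls were lost together after another background correction (normexp), under which no probe of any gene passed: adjusted p was 0.275 for Dbp, 0.294 for Tef and Ciart and 0.291 for Nfil3, with changes of 1.63, 1.04, 1.36 and -0.81. Without the filter on dim probes Tef (adjusted p = 0.0562) and Nfil3 (0.0557) no longer passed.

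Differences between genes within a scan do not change when a single factor scales the whole array. Quantile normalization or another background correction can change them. The level of Dbp minus that of Nfil3 was -1.09, -1.13 and -1.10 in control scans and 1.61, 1.33 and 1.30 in H/R scans. The gap between the D-box activator and the D-box repressor thus shifted by 2.56 on the log2 scale, a 5.91-fold change of their ratio. This shift, like those below, combines the changes of single genes given above and is not separate evidence. For Tef minus Nfil3 the values were -2.59, -2.47 and -2.48 in control and -0.72, -0.44 and -0.49 in H/R, a shift of 1.94. Dbp, Ciart and Nfil3 also parted from Per2: Dbp minus Per2 shifted by 1.46, Ciart minus Per2 by 1.14 and Nfil3 minus Per2 by -1.10. Within Ciart minus Per2 the arrays of a group had an SD of 0.02 in both control and H/R. Dbp minus Tef shifted by 0.62, with an SD between H/R arrays of 0.39, and Dbp minus Ciart by 0.33, with an SD of 0.16. In the 9 pairs of genes computed, each shift had an exact two-sided permutation p of 0.333, the smallest that 2 arrays against 2 can give, so none could pass 0.05.

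**Figure D3:**
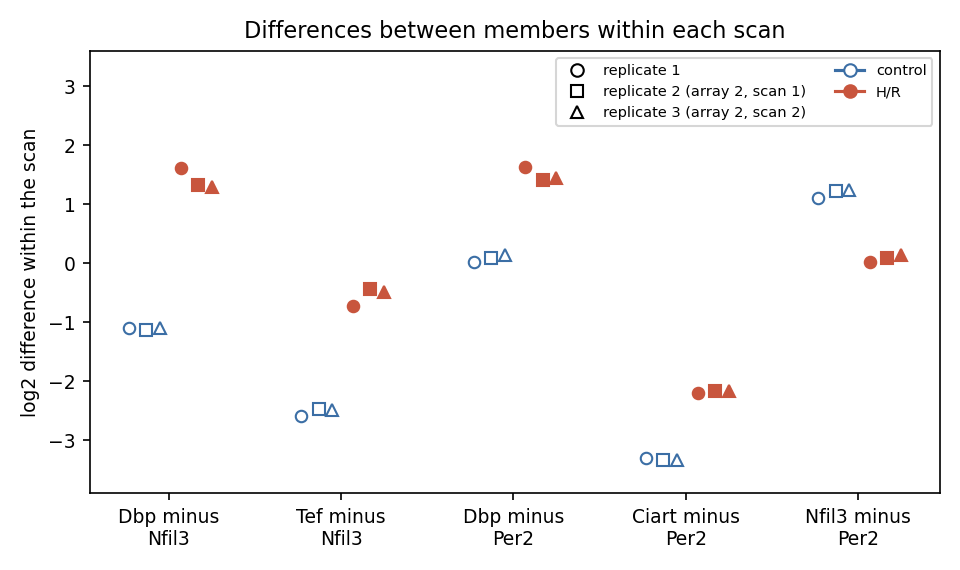
Level of one gene minus that of another within the same scan, on the log2 scale, for 5 pairs; open blue marks are control scans and filled red marks H/R scans, with shapes for replicates. In each pair the H/R scans stand apart from the control scans, with Dbp minus Nfil3 going from about -1.1 to between 1.3 and 1.6.

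The genes that rose or fell were set beside the sequence before their start sites, since E-boxes and D-boxes are what the loop's factors read. RefSeq's promoter table (build GRCr8) held a window for all of the 10 genes but Hlf. In the 250 bases before each listed start, the E-box CACGTG, the D-box forms TTATGTAA and TTATGCAA, the core AGGTCA of the REV-ERB element, the cyclic AMP element TGACGTCA and its shorter form TGACG, which lies within it, were searched on both strands. Shown are 110 bases of Ciart (chr2:186112247-186112356, minus strand) and 60 of Tef (chr7:115206607-115206666, plus strand), which hold E-boxes, 60 of Per2 (chr9:99497154-99497213, minus strand), which hold a D-box, and for contrast 110 bases of Dbp (chr1:105312146-105312255, plus strand). Capitals mark the E-box in Ciart and Tef and the D-box in Per2.
Ciart: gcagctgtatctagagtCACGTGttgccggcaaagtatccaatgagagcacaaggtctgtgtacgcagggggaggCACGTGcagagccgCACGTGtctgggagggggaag
Tef: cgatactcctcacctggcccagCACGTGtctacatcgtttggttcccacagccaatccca
Per2: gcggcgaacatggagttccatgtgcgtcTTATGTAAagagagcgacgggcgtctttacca
Dbp: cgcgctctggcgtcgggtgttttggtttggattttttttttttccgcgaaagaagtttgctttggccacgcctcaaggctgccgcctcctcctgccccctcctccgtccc

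Ciart held 3 E-boxes, beginning 93, 35 and 21 bases before the start, and Tef held 1, at 198 bases. An E-box occurred in 5.59% of the 33469 windows of this length in the table, and 3 or more in 17 of them (0.0508%). Nr1d1, which did not pass, held 1 E-box 191 bases before one of its listed starts and none before the other. Per2, which did not pass either, held the D-box TTATGTAA 192 bases before its start, a form found in 0.828% of windows. Dbp, the gene with the largest rise, held none of these letters in its window, nor did Per1. Sequence farther upstream or deeper within the genes was not searched, nor were other forms of the E-box and D-box. The search therefore does not show that Dbp or Per1 lacks such elements. Nfil3 held the short form TGACG 9 bases before its start and Per3 at 164 bases; 18.2% of windows hold it. Nr1d2, whose mRNA has no value here, held the REV-ERB core AGGTCA 187 bases before its start, as 14.1% of windows do. The starts of Ciart, Tef and Per1 lie 1532, 9647 and 5374 bases inside the outer bounds of their genes. The Nr1d1 start with the E-box lies 2358 bases inside. Other transcripts of these genes thus start farther upstream, and which start the cells used was not measured. Whether E-boxes or D-boxes took part in the changes was not tested.

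Among the other core loop genes measured, Npas2 alone passed the test. Of 11 core loop genes listed, 6 were matched and tested; 0 rose and 1 fell (16.7% called, against 25.8% of coding genes), with a median of -0.06. Bmal1, the obligate partner of CLOCK, differed by -0.15 ± 0.09 (adjusted p = 0.270), and Clock itself by 0.02 ± 0.14 (adjusted p = 0.907). The cryptochrome genes Cry1 and Cry2 differed by 0.05 ± 0.11 and 0.03 ± 0.12. Bhlhe40, which encodes the E-box repressor DEC1, differed by -0.32 ± 0.30 (adjusted p = 0.456, 95% interval -1.09 to 0.44); it read -0.74 without H/R array 1, and its sign turned without H/R array 2 (0.10) and after normexp correction (0.66). The sign of Clock, Cry1 and Cry2 turned under median scaling. Over the 20 alternatives it turned in 8 for Clock (range -0.18 to 1.02), 8 for Cry2 (-0.10 to 0.61) and 2 for Cry1. Clock and Npas2 read low, with mean levels of -6.41 and -5.47 in control, though well above background in every scan. Npas2 fell by 1.00 ± 0.15 (adjusted p = 0.0137); it missed the threshold without H/R array 1 (-0.87, adjusted p = 0.0672), and after normexp correction its sign turned (0.69). The other 5 had no matched probe.

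Of 22 genes listed as clock modifiers, such as kinases, ligases and cofactors of clock proteins, 15 were tested. Among these 0 rose and 3 fell (20.0% called, against 25.8% of coding genes), with a median of -0.15 and a range of -1.33 to 0.20. Timeless, a partner of the replication fork with a debated clock role in mammals, changed by -1.33 ± 0.13 (adjusted p = 0.00555). Prkaa2, a catalytic subunit gene of the energy sensor AMPK, fell by 0.57 ± 0.10, and Wdr5, a subunit gene of histone methyltransferase complexes, fell by 0.46 ± 0.09. With any of the 4 arrays left out, Timeless alone of the 3 stayed past the threshold, and the sign of Prkaa2 turned after normexp correction (0.26).

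Among output genes, which include reported targets of the clock or of PAR-bZIP factors, changes went both ways. Of 18 listed, 17 were matched and 14 tested. Among these 4 rose and 4 fell (57.1% called, against 25.8% of coding genes), with a median of 0.07. The list was chosen by role with earlier results of these data known, so its share is not a test of the list. Klf15, a Krüppel-like factor gene under clock control in heart, rose by 1.73 ± 0.11, from levels of -4.34 in control to -2.61 in H/R (adjusted p = 0.00225). Elovl6, a fatty acid elongase gene, rose by 0.82 ± 0.13, and Pck1, a gluconeogenesis gene, by 1.07 ± 0.20. Pck1 was well above background in 2 of 3 control scans and passed the filter through the H/R scans alone; where every scan had to be well above background, 12 output genes were tested, 3 rose and 4 fell. Hsd11b1, which encodes the enzyme that regenerates active glucocorticoid, fell by 1.10 ± 0.10, and Noct, a gene of a rhythmic phosphatase, changed by -0.76 ± 0.10. With any of the 4 arrays left out fewer of these genes passed, and fewer probes passed over the whole array too.

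Per1 and Nfil3 also respond to cyclic AMP and glucocorticoid signals, and some genes of those signals were listed for that reason. Other genes that respond to them may stand in another list or in none. Of 18 listed, 17 were tested. Among these 0 rose and 10 fell (58.8% called), with a median of -0.52. Over all coding genes tested 25.8% were called, 16.2% higher and 9.62% lower. This list too was chosen with earlier results of these data known, so the shares are not a test of it. The genes that fell included the immediate-early genes Nr4a1 (-2.15 ± 0.10) and Fos (-1.53 ± 0.24), of which Fos turned its sign after normexp correction. The kinase gene Sgk1 (-1.82 ± 0.13), the EGF receptor inhibitor gene Errfi1 (-1.52 ± 0.10), the glucocorticoid-induced factor gene Klf9 (-1.30 ± 0.16) and the salt-inducible kinase gene Sik1 (-0.82 ± 0.09) fell too (adjusted p from 0.00182 for Nr4a1 to 0.0154 for Fos). The other 7 did not pass, and the highest change in the list was 0.38. With every scan required to be well above background, Crem, a gene of a cyclic AMP responsive factor named here after its value was seen, passed upward (0.35, adjusted p = 0.0494). Without either H/R array fewer genes of this list passed, as did fewer probes over the whole array. The list shares serum and stress inputs with many other genes, and its part in the changes of Dbp, Tef, Ciart and Nfil3 was not tested.

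**Figure D4:**
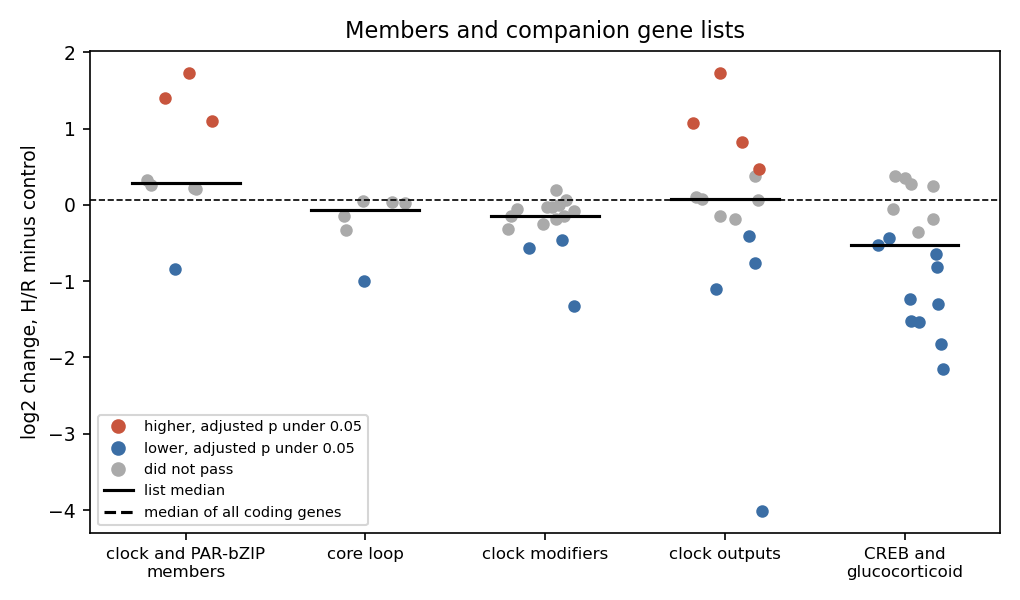
Change in H/R against control (log2) of each gene tested, in columns for the clock and PAR-bZIP genes and the 4 companion lists; red and blue points passed upward and downward, grey points did not pass, solid bars are list medians and the dashed line is the median of all coding genes (0.07). The cyclic AMP and glucocorticoid list has the lowest median of the 5 columns (-0.52) and no point in red.

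The 5 coding genes outside these lists whose levels over the 4 arrays, centred per gene, lay closest to those of Dbp were Ak7, Serinc2, Agmo, Calml4 and Aspn. Their mean absolute difference from Dbp was 0.04 to 0.08 on the log2 scale, and they rose by 1.69 to 1.80. Over 4 arrays of 2 groups this likeness is mostly that of the group difference.

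The labelled cell type was checked against marker genes. Of 14 muscle lineage genes on the array, 13 were well above background in all 6 scans, among them Des, Myog and Myod1, although the protocol text names a cortex as the source of the RNA; of 6 neural genes on the array, the astrocyte gene Gfap and the myelin gene Mbp were well above background in all 6 scans, Syp in 3 and Syt1 in 1, and the neuronal gene Rbfox3 and the astrocyte gene Aqp4 in none. The neural list's summed signal, in multiples of the array's 75th percentile, spanned 0.158 to 0.181 in control and 0.176 to 0.183 in H/R scans (0 of 2 tested were called). The summed signal of the muscle list on the same scale spanned 53.4 to 65.1 in control and 62.0 to 64.4 in H/R scans. In this list 3 members were higher (Tnnt2, Myh3 and Tnnt1) and 1 lower (Myod1). Bright probes weigh most in such sums, here Tpm2 and Vim, with mean log2 levels of 4.64 and 3.95 in control. The fibroblast list spanned 28.9 to 33.3 and 33.4 to 35.7 (1 of 4 tested higher, Dcn), with Col3a1 its brightest probe (4.94 in control). The endothelial list spanned 0.0506 to 0.0549 and 0.0963 to 0.116 (Tek higher, Cdh5 and Pecam1 not well above background in any scan). The leukocyte list spanned 0.288 to 0.452 and 0.327 to 0.375 (0 of 3 called, Aif1, Cd68 and Csf1r well above background in all 6 scans, Ptprc, Adgre1 and Itgam in none). The part of these shifts in the clock gene changes was not tested. The share of spots well above background ran from 58.4% to 71.1% by scan, none was saturated, and the number of arrays limits the precision.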

How the data were processed

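The authors deposited scanner files with spot intensity values, extracted per the file headers with Agilent Feature Extraction 11.0.1.1 (also in the submitters' processing notes), corrected for background and spatial trend within an array; flags in the deposited files, another kind of value, are coded 0 or 1. Normalized log2 values of 16841 probes were deposited too, with column medians of 9.18 to 9.19, not centred on 0; the normalization method has no source here. After control and outlier-flagged spots were dropped, log2 signals were averaged per probe and set relative to the array's 75th percentile, taken over the 24578 probes usable in every file. Each probe of the clock genes is 1 spot per array. Probes well above background in all 3 scans of a group were tested, 15899 in all, with limma 3.58.1 in R 4.3.3 (lmFit, eBayes, two-sided; 2 residual and 2.86 prior degrees of freedom; no block for replicate numbers). The fit was tested on simulated data, in which most small changes were missed. Accessions were matched without versions to the GRCr8 RefSeq table for names; 14274 of 15323 coding probes received a symbol, and a gene is its brightest probe. The array design itself carries build rn4, and no coordinates of it are given. All arrays lay on 1 slide, with no position shared between groups, which confounds position with group; the first scan held replicates 1 and 2 of both groups. Figures were drawn with matplotlib 3.10.9. The clock genes and companion lists were chosen with earlier results of these data known, by role. Of each companion list up to 6 called genes were to be named, and every core loop gene; 1 output gene is counted but not reported here. The normexp alternative used median spot signals with an offset of 50, since the files hold no mean signal.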

Additional observations from a re-analysis of the deposited data

How the results depend on the processing

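Over 20 alternatives the changes of Dbp, Tef, Ciart and Nfil3 kept their direction, with ranges of 1.55 to 1.89, 0.97 to 1.20, 1.27 to 1.46 and -0.97 to -0.79; Per1, Per2, Per3 and Nr1d1 stayed positive, at 0.05 to 0.52. Leaving out an array or a scan of an averaged pair gave 1008 to 3778 probes (2040 without control array 1, 1091 without H/R array 1, 1008 without H/R array 2) against 3769, 3 to 4 of the 8 clock and PAR-bZIP genes against 4, 0 to 1 core loop genes against 1, 1 to 3 modifiers against 3, 3 to 8 output genes against 8 and 4 to 10 cyclic AMP and glucocorticoid genes against 10; an array left out leaves 1 array in its group, assumed to vary like the other group. With the 6 scans as separate samples, which counts 1 array as 2, limma called 8309 probes, 2 core loop genes and 8 modifiers, and Per2 passed (adjusted p = 0.0132); with scan as a block it called 7423 probes and 6 modifiers. After normexp limma called 0 probes and 0 genes of any list, with 2044 probes and 4 of the 8 clock and PAR-bZIP genes with an unadjusted p below 0.05. When dim probes were kept, 594 probes, 2 of the 8 genes (Dbp and Ciart), 0 core loop genes, 1 modifier, 3 output genes and 3 cyclic AMP and glucocorticoid genes were called, after adjustment over 24578 probes. The cause of the loss after normexp was not tested. Median scaling called 3819 probes, 1566 of them higher and 2253 lower against 2358 and 1411, quantile normalization 1987 and 1707, the deposited log2 values 1692 and 1486, and the percentile over spots, an alternative chosen after seeing the data, 1949 and 1624; the same 4 genes passed under each of these. The median change of all probes moved from 0.07 to -0.06 under median scaling and to 0.33 after normexp.

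With replicates 2 and 3 averaged, same-numbered arrays of the groups deviated together at r = 0.15, but only 2 numbers are left and the labels do not say that a number marks a shared batch. The replicate block then called 3886 probes and the same 4 genes, and with the 6 scans as separate samples 8426 probes, 2 core loop genes, 7 modifiers and 6 of the 8 clock and PAR-bZIP genes, with Per2 (adjusted p = 0.0208) and Per3 (0.00942) gained. Each of the 8 was well above background in every scan.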
